A study of Mus musculus with 39 samples.

Results

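The RNAs described here encode the proteins of the cytosolic ribosome. They were taken as the rows of the expression files whose gene symbol is Rpl or Rps followed by a number and at most 1 of the letters a, x, y or l and 1 further digit, together with Rpsa, Rplp0, Rplp1, Rplp2 and Fau, leaving out pseudogene symbols ending in -ps and the Rps6k kinase genes. This rule was met by 85 of the 14386 genes found in either file of values, and 83 of them, 49 of the large and 34 of the small subunit, were among the 13230 genes of both gradients. RNA was sequenced from sucrose density fractions of livers of wild-type FVB female mice, 1 mouse per gradient and 2 gradients in all. The livers were broken with beads without detergent and cleared of nuclei, and the homogenate was spun through a 10 to 50% sucrose gradient. All samples therefore share strain, sex, genotype and tissue and differ in fraction and gradient. The animal and the separate preparation of a gradient cannot be told apart. The labels gave no age. Gradient 1 had 17 libraries (fractions 4 to 19 and 21) and gradient 2 had 22 (fractions 3 to 24), with low fraction numbers at the light end.

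Each ribosome joins a large and a small subunit, and each subunit carries many small basic proteins on ribosomal RNA. Most messenger RNAs for these proteins begin with a run of pyrimidines (C or T in the DNA), the terminal oligopyrimidine or TOP motif, through which growth signals acting on mTOR and the protein Larp1 set how strongly they are translated. These RNAs are abundant in the cytosol, though in these liver libraries 0 members were among the 50 most abundant genes by mean TPM. A sucrose gradient separates RNAs by the size and density of what they are bound to. Free messenger particles stay near the top and RNAs on polysomes travel further. For a cluster of RNAs that the paper predicted to be on membranes, it reports a lighter position than ribosome footprints would give.

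The start regions were searched for runs of pyrimidines, which the selection rule did not use. Windows from 15 bases before to 50 bases from the annotated start were read from RefSeq entries for GRCm38.p6, for 62 of the 83 members, using the first listed start of each gene. A run of at least 8 C or T bases on the gene's strand lay in 45 of these 62 windows (72.6%). Over the 9991 windows of all genes of both gradients that had an entry, the share was 21.4%. A run could lie anywhere in the window. The longest began 1 base before the annotated start in Rps6 and 2 before it in Rps27, but 40 after it in Rpl10, Rpl41 and Rps2. The share with a run at the annotated start itself was not taken. In a wider window, from 50 bases before the start, the shares were 80.6% and 32.3%. On the opposite strand of the first window (at least 8 A or G bases) the shares were 9.68% and 23.7%. The letters CTCTTT, which can lie within such a run, were found in 29.0% of members and 1.95% of all windows, and their reverse complement AAAGAG in 1.61% and 1.42%. CTTTC was found in 43.5% and 6.82%, and its reverse complement GAAAG in 11.3% and 6.28%. The sequences below are from members whose values are given later, with low (Rps12) and high changes (Rps6, Rpl18, Rpl19) and 2 pairs of related genes, each as 30 bases with the longest run of the window in capitals. In Rps27l another run of 9 in lower case begins ahead of the window.
Rps12: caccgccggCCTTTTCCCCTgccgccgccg
Rps6: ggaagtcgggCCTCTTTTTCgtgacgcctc
Rpl18: tcgcaggccgCTCTTTCCCCgcccactccg
Rpl19: cgtgaccaaacgCCCTCactgcgcatgtgc
Rps27: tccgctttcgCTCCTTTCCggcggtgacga
Rps27l: ctcctctccaCTCCTCCCCgccgcctctat
Rpl22: acagccgacttcgCCCTgggaaaagcaata
Rpl22l1: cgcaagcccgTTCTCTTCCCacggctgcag
These lie at chr10:23787181-23787210 (minus strand), chr4:86857349-86857378 (minus), chr7:45718062-45718091 (plus), chr11:98026693-98026722 (plus), chr3:90213631-90213660 (minus), chr9:66946064-66946093 (plus), chr4:152325702-152325731 (plus) and chr3:28805499-28805528 (plus) of GRCm38.p6, in the order printed. Rpl19 and Rpl22 hold no run of 8 in the window, with longest runs of 5 and 4 bases. A match is only a description of these letters around an annotated start.

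Values are TPM (transcript abundance scaled to a fixed total), the share of an RNA among all RNAs of a library corrected for transcript length. The members together took 13.2% ± 1.27 (SD, n = 2 gradients) of all TPM in the light zone, defined as fractions 4 to 7. They took 3.79% ± 0.633 in the middle zone (fractions 10 to 13) and 2.21% ± 0.145 in the dense zone (fractions 16 to 19). The highest share was in fraction 6, at 17.5% in gradient 1 and 19.1% in gradient 2. In fractions 20 to 24 of gradient 2 it stayed between 1.69% and 1.81%. The share was lower in fraction 4 than in fraction 6, at 6.14% in gradient 1 and 9.26% in gradient 2, where Rpph1, the RNA of the enzyme RNase P, alone took 24.96% and 13.4% of TPM. Because the total of each library is fixed, that share lowers every other RNA, and with Rpph1, Rmrp, Rprl and Rn45s left out of the total the light zone was at 14.6%. Fraction 4 was still below fraction 6 in that total, at 8.53% against 18.7% in gradient 1 and 11.1% against 20.2% in gradient 2. TPM gives shares and not amounts, and the amount of RNA in a fraction was not analysed here.

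**Figure D1:**
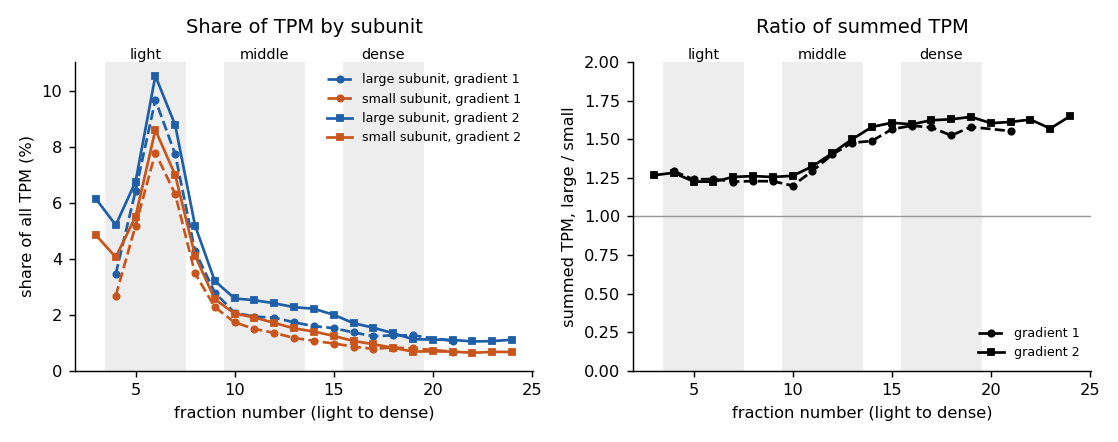
Left, share of all TPM (%) taken by large (blue) and small (orange) subunit RNAs in each fraction of gradient 1 (dashed) and gradient 2 (solid), 1 library per point, with the 3 zones in grey. Right, ratio of summed TPM of the large to the small subunit RNAs, which was 1.25 in the light zone and 1.60 in the dense zone as means of the 2 gradients.

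The members shared a peak near the light end. Fraction 6 was the highest of the 17 shared fractions for 74 of 83 members in gradient 1 and 76 of 83 in gradient 2, against 7.12% and 8.05% of all genes. With each profile being TPM over the fractions of gradient 2, the median Pearson R between 2 of the 84 members there was 0.962. Over all pairs of genes whose mean TPM reached 1 it was 0.113. For members with a mean TPM of at least 10 it was 0.966. Neighboring fractions share material, so these values describe the profiles only. The mean fraction number weighted by TPM, here called the center, had a median of 8.83 in gradient 1 and 8.90 in gradient 2 over the 83 members. Over the 11754 genes whose mean TPM reached 1 it was 11.26 in both gradients. Between the gradients, R of a member's own profiles had a median of 0.986 over the 82 members whose mean TPM reached 1. The lowest of these was Rpl30 (0.615), and the median over all 11754 genes at that level was 0.899. Rpl3l, below that level, had 0.162.

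**Figure D2:**
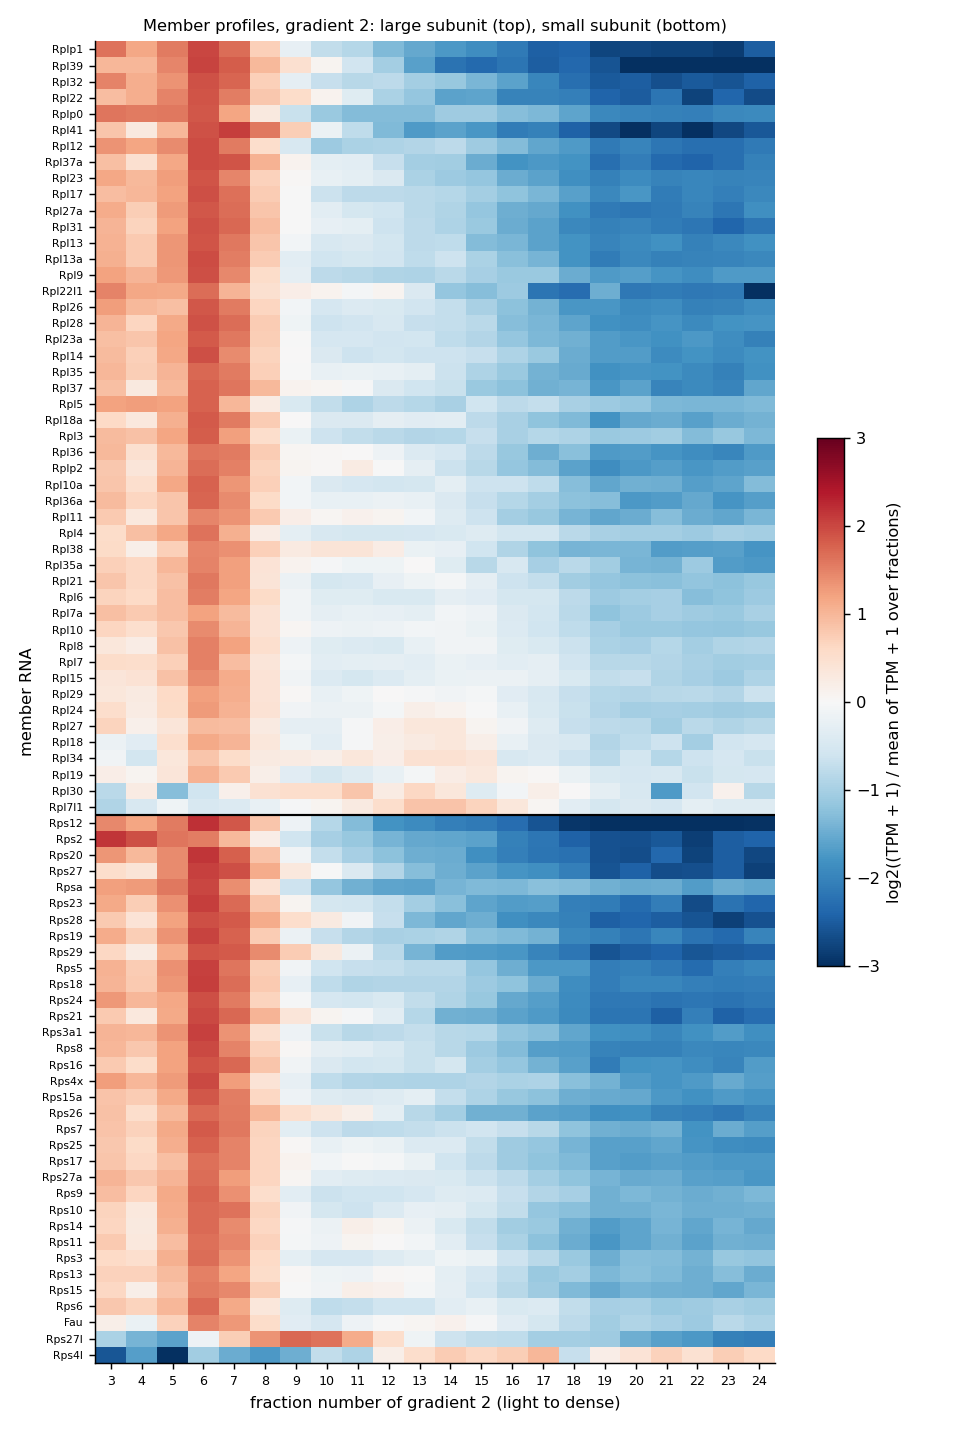
Profiles of the 82 tested members along gradient 2, 1 row per RNA and 1 column per fraction, as log2 of TPM plus 1 relative to the mean over fractions (red above, blue below). Large subunit RNAs are above the line and small subunit RNAs below, each ordered by center from light to dense, and most rows are reddest at fraction 6.

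For the tests, log2(TPM + 1) was averaged over the 4 fractions of each zone in each gradient. Zones were compared with limma on 11754 genes whose mean TPM reached 1, with Benjamini-Hochberg adjustment over all of them and a threshold of 0.05. Of the members 82 were tested, and Rpl3l was too low. In the dense zone 79 of the 82 were lower than in the light zone (39.6% of all genes were lower) and 1 was higher (22.3% of all genes were higher). The median change was −2.51 on the log2(TPM + 1) scale, against −0.43 over all genes tested. In the middle zone 74 were lower than in the light zone (background 24.1%) and 4 were higher (background 23.5%), with medians of −1.77 and 0.05. In the dense zone 37 were lower than in the middle zone (background 22.5%, or 27.3% in either direction) and 0 were higher (background 4.79%, and 0 at an unadjusted p under 0.05 in limma), with medians of −0.83 and −0.28. With the gradient as a block, which pairs zones of the same animal, the last count of lower members was 63 (39.3% of all genes were lower in that fit). It was 0 without the middle zone of gradient 1 and 0 without that of gradient 2, where 0 of all 11754 genes were lower. Without the dense zone of gradient 1 it was 21, and 18.6% of all genes were lower. Each of these fits had 5 zone means left. With the block, 79 members were lower in the dense than in the light zone (50% of all genes) and 2 were higher (30.5% of all genes).

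Dense against light, the 4 largest falls among members were those of Rps12, Rpl39, Rplp1 and Rps2. Rps12, a small subunit protein, had 1093, 2662 and 3992 TPM (lowest, median and highest of 8 libraries) in the light zone. It had 163, 251 and 478 in the middle zone and 105, 121 and 177 in the dense zone, so no light library overlapped either other zone. Its change to the dense zone was −4.34 (SE 0.213, limma adjusted p = 0.000301). Rpl39, one of the smallest large subunit proteins, had 816, 2024 and 3243 TPM in the light zone and 47.7, 130 and 173 in the dense zone, a change of −4.09 (SE 0.421, limma adjusted p = 0.000736). Rplp1, part of the acidic stalk that contacts elongation factors, went from 2702, 4344 and 6102 TPM to 194, 256 and 306 (change −4.08). Rps2, at the messenger entry side of the small subunit, went from 3131, 4469 and 6099 TPM to 262, 297 and 394 (change −3.77). Its highest fraction in gradient 2 was 3, above fraction 6.

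Other members of the stalk and those named apart from the numbered symbols gave a range of changes. Rplp0, the base of the stalk, changed by −3.21 dense against light, and Rplp2, the partner of Rplp1, −2.71. Rpsa, a small subunit protein also known as the laminin receptor precursor, had a median of 1549 TPM in the light zone, 187 in the middle and 218 in the dense zone. Its change from the light to the middle zone was −3.11, one of the 4 lowest beside Rps12, Rplp0 and Rplp1 (−2.95). From the middle to the dense zone it changed by 0.27 (limma adjusted p = 0.406). Fau and Rps27a are made as fusions to a ubiquitin-like protein and to ubiquitin. Dense against light, Fau fell by 1.37 and Rps27a by 2.33, and for Fau the range of the light zone (718 to 3219 TPM) overlapped those of the middle (683 to 1043) and dense zones (470 to 806).

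A few members did not follow the rest. Rps4l, annotated as a transcribed processed pseudogene, rose by 3.03 dense against light (SE 0.537, limma adjusted p = 0.00450), with medians of 1.63 TPM in the light, 8.85 in the middle and 21.2 in the dense zone. The 2 gradients differed in size, with changes of 3.90 and 2.15 and dense libraries from 4.54 to 39.6 TPM. Rps27l, a copy of Rps27 and a p53 target, had its highest value in fraction 9 of both gradients. Its median was 270 TPM in the light zone, 785 in the middle and 227 in the dense zone, a rise of 1.196 to the middle (limma adjusted p = 0.00718) and a fall of 1.82 from there to the dense zone (limma adjusted p = 0.00702). Rps27 itself fell by 2.22 from the light to the middle zone. Rpl7l1, a relative of Rpl7, rose by 0.81 to the middle zone (limma adjusted p = 0.0176) with its highest value in fraction 13 of gradient 1 and 14 of gradient 2, while Rpl7 fell by 1.29. Rpl30 rose by 1.27 to the middle zone (limma adjusted p = 0.0397) but was at a mean of only 17.2 TPM. These 4 were the higher members of that comparison, and with another set of zone borders (fractions 4 to 6, 9 to 12 and 17 to 19) the count was 1, where 24.9% of all genes were higher. Leaving out a zone mean, it was 1 without the light zone of gradient 1, 0 without that of gradient 2, 1 without the middle zone of gradient 1 and 2 without that of gradient 2, where between 12.6% and 17.4% of all genes were higher. The members that passed in neither direction were Rpl30 and Rpl7l1 dense against light, and Rpl18 (−0.46), Rpl22l1, Rpl34 (0.05) and Rpl35a (−1.04, limma adjusted p = 0.0574) middle against light. Rps4x, the more abundant partner of Rps4l, had medians of 1428, 298 and 266 TPM in the 3 zones and fell by 2.39 dense against light. Differences between the 2 genes of a pair were not tested.

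**Figure D3:**
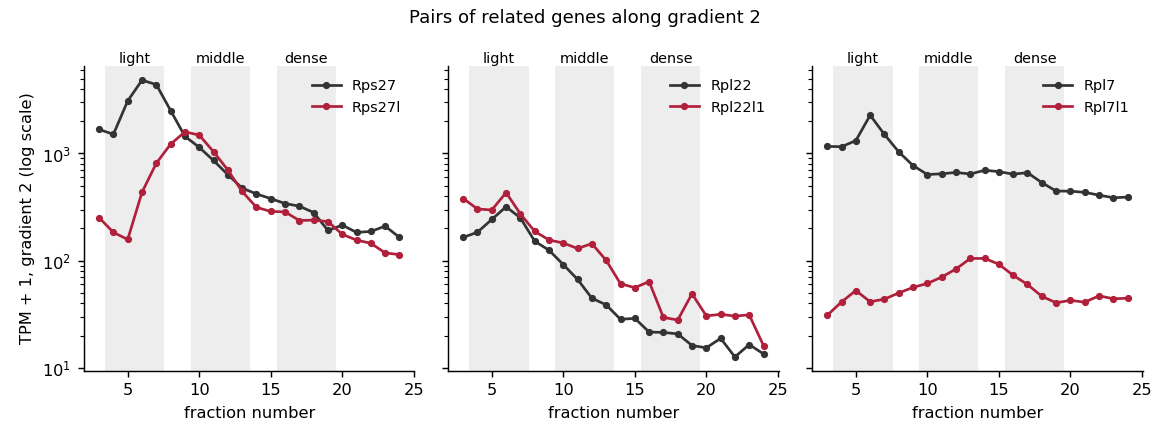
TPM plus 1 along gradient 2 on a log axis for Rps27 and Rps27l, Rpl22 and Rpl22l1, and Rpl7 and Rpl7l1, 1 library per point, with the zones in grey. Rps27l was highest in fraction 9 and Rpl7l1 in fraction 14, while Rps27, Rpl22, Rpl22l1 and Rpl7 were highest in fraction 6.

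The pair Rpl22 and Rpl22l1 stayed closer to each other. Rpl22 had medians of 214, 42.5 and 16.0 TPM in the light, middle and dense zones and fell by 3.63 dense against light (limma adjusted p = 0.000353). Rpl22l1 had 224, 74.99 and 22.4 and fell by 3.53 (limma adjusted p = 0.0151). Its change to the middle zone did not pass (−1.51, SE 0.874, limma adjusted p = 0.203), with libraries from 33.1 to 145 TPM in the middle zone. Of the other relatives on the list of pairs, Rpl3l was below a mean of 1 TPM and Rpl39l was found only in gradient 2, where its highest value was 1.49 TPM. Rpl32l was found only in gradient 1, at most at 2.32 TPM.

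Some members have near copies whose reads may be divided among rows. Rpl34 had a mean of 28.9 TPM, and its processed pseudogene Rpl34-ps1, which is not a member, had 720 in gradient 1 and 728 in gradient 2. Rpl30 and Rps15a (31.7 TPM) were also low among members. Rpl36al, whose symbol has 2 letters after the number and so was not matched by the rule, had a center of 12.2 in gradient 1 and 12.3 in gradient 2, against 9.46 and 9.20 for Rpl36a. How far shared reads moved these values was not tested.

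The most abundant members by mean TPM over the 24 zone libraries were Rpl10 (1977), Rpl41 (1873), Rplp1 (1714) and Rpl28 (1528) of the large subunit and Rps2 (1739), Rps28 (1481), Rps18 (1468) and Rps27 (1424) of the small. All 8 fell dense against light, from −1.76 for Rpl10 to −3.77 for Rps2 and −4.08 for Rplp1. Rpl41, which encodes a peptide of very few residues, fell by 3.55, and its highest fraction was 7 in both gradients.

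Large and small subunit RNAs differed less between each other than either did along the gradient. Summed TPM of the large subunit was 1.25 times that of the small in the light zone of both gradients. In the middle zone the ratio was 1.34 in gradient 1 and 1.37 in gradient 2, and in the dense zone 1.57 and 1.62. The ranges of the light (1.22 to 1.29) and dense (1.52 to 1.64) libraries did not overlap. The ratio of geometric means, which weights each RNA alike, was 0.870 ± 0.0189 in the light, 0.980 ± 0.0191 in the middle and 1.02 ± 0.0698 in the dense zone (SD, n = 2 gradients). Its ranges over the light (0.822 to 0.953) and dense libraries (0.866 to 1.09) overlapped. The mean log2 change dense against light was −2.28 for the 48 large and −2.51 for the 34 small subunit RNAs, a difference of 0.23 ± 0.070. From the light to the middle zone the difference was 0.17 ± 0.0017 and from the middle to the dense zone 0.058 ± 0.072. The light to middle difference moved with the processing by more than this SD, from 0.098 (other zone borders) to 0.21 (no filter) with these members kept. Without Rpl7l1, Rpl22l1, Rps4l and Rps27l the 3 differences were 0.43, 0.33 and 0.11. No test was made, since the RNAs of a subunit are not replicates. Of the small subunit RNAs 33 of 34 were lower in the dense than in the light zone and of the large 46 of 48 (39.6% of all genes). Middle against light, 32 of 34 small and 42 of 48 large subunit RNAs were lower (24.1% of all genes). Dense against middle, 19 of 34 small and 18 of 48 large were lower (22.5% of all genes). With the gradient as a block, 27 small and 36 large were lower in that step (39.3% of all genes). The difference between these counts was not tested.

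The step from middle to dense followed the length of the coding sequence. Over the 81 tested members with an annotated coding sequence, Pearson's r of this change with log2 coding length was 0.712 (Spearman's rho 0.789). It was 0.667 in gradient 1 and 0.720 in gradient 2, and 0.685 within the large and 0.770 within the small subunit. Over all 10819 genes with a length it was 0.294. With transcript length in place of coding length it was 0.441 over members. For the change from the light to the middle zone r was −0.095 over members, 0.022 within the large and −0.355 within the small subunit. Members share libraries and function, so these are descriptions without a p. The 28 members with under 400 coding bases had a median change of −1.14 in that step, the 30 with 400 to under 600 bases −0.80, and the 23 longer ones −0.33. Within these classes the large subunit medians were −1.14, −0.64 and −0.21 and those of the small subunit −1.24, −0.99 and −0.47. The shortest, Rpl41, has 75 coding bases and the longest, Rpl4, 1257. Rps27l (−1.82), Rpl39 (−1.57) and Rpl22 (−1.52) were among the 4 lowest, with Rpl22l1 (−2.02, limma adjusted p = 0.145). Rps4l (1.07), Rpsa (0.27), Rpl19 (0.23) and Rps6 (0.20) were the 4 highest, and none of these passed.

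**Figure D4:**
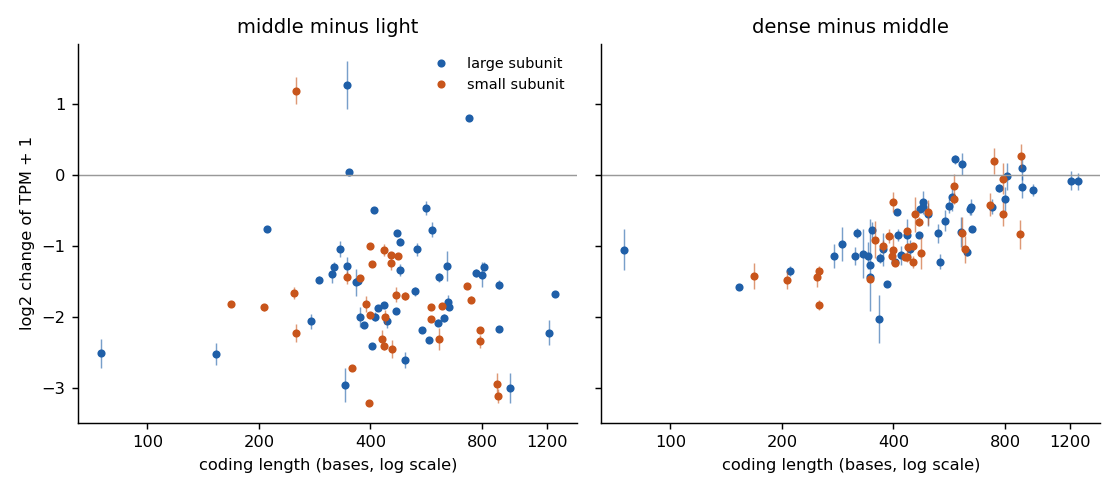
Log2 change of TPM plus 1 of each member against coding length on a log axis, for the light to middle (left) and middle to dense (right) steps, with large subunit RNAs in blue and small in orange. Points are means and vertical lines join the 2 gradients. Pearson's r was −0.095 on the left and 0.712 on the right.

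The RNAs whose profiles were most like the mean profile of the members, by the lower Pearson R of the 2 gradients over 17 fractions, were Gm12191 (0.995), Epb41l4aos (0.986), Gas5 (0.984), Eif3f (0.984), Rpl34-ps1 (0.981), Eef1b2 (0.981), 2410006H16Rik (0.979), Rack1 (0.979), Tpt1 (0.977) and Eif4b (0.975). Gm12191 and Rpl34-ps1 are annotated as processed pseudogenes. Rpl34-ps1 is the near copy of the member Rpl34 given above, so its reads may be shared with that member. How far shared reads gave these likenesses was not tested. Gas5 is a noncoding host of small nucleolar RNAs, Eef1b2 and Eif4b are translation factors, and Rack1 sits on the small subunit. Of 7151 other genes whose mean TPM reached 10, 1.72% had an R over 0.9 with that mean profile. Members enter the mean, so their own R is not set beside this share. Lowest among members were Rps4l (−0.669), Rpl7l1 (−0.497), Rpl30 (−0.173) and Rps27l (0.107).

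Other gene lists of the translation machinery and the liver give the surroundings of these values. Of 22 tested genes of the TOP companions, translation factors and other RNAs known for TOP motifs, 17 fell and 3 rose dense against light, with a median change of −1.19. The most abundant, Eef1a1, which brings aminoacyl-tRNA to the ribosome, fell by 2.72, and Tpt1 fell by 3.84. Of 48 ribosome biogenesis genes 33 rose and 1 fell (median 1.17), with Rrp1 rising by 3.07 and Nop10 by 0.94. Of 78 RNAs for mitochondrial ribosomal proteins 44 rose and 11 fell (median 0.77), and from the light to the middle zone 70 rose and 0 fell. Mrpl12 fell by 0.74 dense against light, and the change of Mrpl52 was −0.29 (limma adjusted p = 0.168). Of 26 RNAs for proteins secreted by hepatocytes 16 fell and 1 rose (median −1.49), with Alb at −2.59 and Apoc1 at 0.56 (limma adjusted p = 0.245). From the middle to the dense zone 49 of the mitochondrial list fell and 6 rose (median −0.94). In that step 2 of the TOP companions fell and 4 rose (median 0.15). Of the biogenesis genes 4 fell and 5 rose (median 0.30), and of the secreted list 0 fell and 0 rose (median 0.07). The background shares given above hold for these counts too.

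Members that carry a small nucleolar RNA gene within their body numbered 30 of 82. Their median change dense against light was −2.73, against −2.45 for the other 52. For members whose start window held a pyrimidine run of at least 8 the median was −2.66 (44 tested), and −2.39 for the 17 without. Middle against light the order was the opposite, at −1.78 with a run and −1.86 without, and dense against middle the medians were −0.85 and −0.47.

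The libraries showed liver. All 8 hepatocyte markers reached a mean TPM of 1, with summed TPM of 25411 to 53238 in the light, 12731 to 22102 in the middle and 20011 to 41678 in the dense zone. Summed levels of 7 Kupffer cell markers ran from 163 to 214 in the light, 64.3 to 97.4 in the middle and 75.1 to 108 in the dense zone. Endothelial markers (5 of 6 reaching a mean of 1) had medians of 71.2, 39.0 and 28.1, stellate markers (5 of 6) 49.7, 19.5 and 16.5, and erythroid markers (4 of 6) 505, 429 and 144. None of 5 lymphocyte markers reached a mean of 1, and 3 of 5 cholangiocyte markers did. Within a gradient, all zones were drawn from 1 liver homogenate, and these sums are shares of TPM and not numbers of cells. Cholangiocyte markers had medians of 4.87, 4.58 and 6.14. The hepatocyte, Kupffer, endothelial, stellate and erythroid sums had lower medians in the dense than in the light zone, as the members did. From the middle to the dense zone the endothelial, stellate and erythroid medians fell too. In that step the hepatocyte median rose from 17057 to 26557 and the Kupffer median from 84.1 to 92.4. The part of these cell types in the result was not tested.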

How the data were processed

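The authors made stranded libraries depleted of ribosomal RNA and, per the labels, demultiplexed them with bcl2fastq 2.16.0.10. Reads were pseudo-aligned by the authors to an mm10 RefSeq index using Kallisto. The TPM values they deposited are given by gene symbol, 1 file per gradient, for genes that passed 1 TPM in some fraction. How transcripts were summed to genes is not given in the sources used here. The deposited TPM of a library sums to between 998099 and 999202, and TPM holds no counts, so depth is unknown and the 2 gradients alone show the precision.

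log2(TPM + 1) was averaged per zone and gradient (24 libraries, 6 zone means) and compared with limma 3.58.1 (eBayes with trend, R 4.3.3) over 11754 genes whose mean TPM reached 1, with Benjamini-Hochberg adjustment. A change on this scale understates the change of low genes. The gradient number marks the animal together with its preparation. Deviations of the 2 gradients correlated between zones (r = 0.665, 0.540 and 0.798 for light and middle, light and dense, middle and dense). The gradient was therefore also fitted as a block. Each animal was sampled once per fraction, and p-values rest on 2 animals.

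Named genes were the 4 highest and 4 lowest members per comparison with a mean TPM of at least 10, the 4 most abundant per subunit, pairs of related genes, the members named apart from the Rpl and Rps numbers with Rps27a, the 10 genes most like the members, and the 2 most abundant of each list. Other members named for not passing, sharing reads or sequence were chosen after their values were seen. The members and lists were chosen with earlier results of these data known. Gene annotation was GENCODE M21 on GRCm38 (mm10), and start regions were from RefSeq, with the window and the least run length chosen after the sequences and both windows had been seen. Alternatives were another pseudocount, filter, scaling, zone borders and leaving out samples. Python 3.11.15, NumPy 2.4.6, pandas 2.3.3 and matplotlib 3.10.9 were used.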

Additional observations from a re-analysis of the deposited data

How the results depend on the processing

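No alternative run reversed the members' median change in any comparison or the difference between subunits. The counts that moved were the higher members from light to dense (2 after quantile normalization and 2 with the replicate block, against 1) and from light to middle (1 with other zone borders, where 24.9% of all genes were higher, 0 to 4 leaving out a zone mean, against 4), and from middle to dense the lower members (63 with the replicate block and 0 to 27 leaving out a zone mean, against 37) and the higher (0 to 1 leaving out a zone mean, against 0). The block moved no other count of members by over 1.5 times. The median change from light to dense was −2.68 rescaled without the members, −2.59 after quantile normalization, −2.63 rescaled without Rpph1, Rmrp, Rprl and Rn45s and −2.82 without fraction 4, the last 2 chosen after seeing the data. From light to middle it was −1.91 without the 50 most abundant genes, −1.92, −1.94, −1.90 and −2.03 in the same 4 settings, and −1.54 with other borders, which gave −1.07 from middle to dense. The median of all genes shifted by 0.37 (light to dense) and 0.31 (middle to dense) after quantile normalization, and the members then lay 2.53 and 0.74 below it. That median did change sign: middle to dense it was 0.035 after quantile normalization, and light to middle it was −0.056 without a filter, −0.072 without the top 50, −0.083 without the members, −0.064 without the noncoding RNAs and −0.036 without fraction 4. The difference between subunits from light to middle was 0.15 (pseudocount 0.1), 0.21 (no filter), 0.17 (without the top 50), 0.17 (without members), 0.13 (quantile), 0.098 (other borders), 0.20 (without fraction 4) and 0.33 (without the paralogs), and from light to dense 0.43 without the paralogs. Shares of TPM were 19.1% (light), 5.12% (middle) and 3.15% (dense) without the top 50, and in the light zone 14.6% without those noncoding RNAs and 15.1% without fraction 4. The median R was 0.957 on the log scale, 0.962 in gradient 1 and 0.966 for members of at least 10 TPM. The median center was 9.19 over all 22 fractions. Except where values show it, the cause was not tested. Depth is unknown, so the counting error of low members cannot be given. The SE over zone means was largest for Rpl22l1 (0.874) and was 0.537 for Rps4l.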
